A study of Mus musculus with 12 samples.

Results

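The genes examined are 10 serotonin receptors measured in the medial prefrontal cortex (mPFC) of mice, namely Htr1a, Htr1b, Htr1f, Htr2a, Htr2c, Htr3a, Htr4, Htr5a, Htr6 and Htr7. The 10 are a chosen list, and 4 other serotonin receptor genes measured on the array are described apart from them. Each of the 10 had exactly 1 probe set annotated to that gene alone, so that no choice among several was needed. They are 10 of 17656 named genes with at least 1 value above system noise. The study set 6 wild-type C57BL/6 male mice exposed to chronic social defeat (CSD) against 6 wild-type male homecage (HC) mice, with 1 Affymetrix Mouse Gene 1.0 ST array per mouse. In CSD, a mouse lives for a fortnight beside a larger, aggressive CD-1 male behind a perforated partition and meets it for a short bout each day, whereas the HC mice lived in groups. Tissue was taken the day after the last defeat from brains perfused with saline, so that both groups had been perfused, and 200 ng of total RNA per mouse was labelled. CSD mice had been screened on social interaction and light/dark tests before they were included. The tissue is bulk cortex, in which fewer cells of a type and less RNA per cell cannot be told apart.

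Serotonin reaches the cortex through axons of raphe neurons in the brainstem, and its effect on a cortical cell depends on the receptors that cell makes. All of the receptors but one are G protein-coupled. Those encoded by Htr1a, Htr1b, Htr1f and Htr5a couple to Gi/o, which lowers cyclic AMP and, for Htr1a, opens potassium channels. Those of Htr2a and Htr2c couple to Gq and phospholipase C, and those of Htr4, Htr6 and Htr7 couple to Gs, which raises cyclic AMP. Htr3a encodes a subunit of a cation channel that serotonin opens directly, known in cortex from a class of inhibitory interneurons. In cortex Htr2a is known for its expression in pyramidal neurons of the deeper layers, and Htr1a and Htr2a are targets of drugs used in mood and psychotic disorders.

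The values were the deposited log2 values after robust multi-array average (RMA) processing, a method that removes background signal, gives all arrays the same distribution and sums up each probe set in 1 value. The 12 arrays had medians between 7.50 and 7.69, and the median correlation of an array with others of its group lay between 0.991 and 0.996. HC replicates 6 and 2 had the lowest correlations (0.991 and 0.992), and the receptors without both are given beside the main values or among the alternatives. The titles also number the arrays from 1 to 12 with all HC arrays first. What that number stands for is not given in the sources used here, and any effect of such an order and of the group cannot be told apart. Markers of excitatory cortical neurons (4 of 4 measured) and of inhibitory neurons (5 of 5) lay clear of background, as the labelled tissue would have. So did 6 of 6 measured markers of striatal neurons, and whether striatal tissue was included was not tested. Of the named genes 6.52% had a lower mean in CSD mice at an unadjusted limma p under 0.05. All 7 measured oligodendrocyte markers did (median log2 fold change −0.64, 0 past the adjustment). Their mean level ranged from 9.53 to 10.11 in CSD mice, against 10.20 to 10.73 in HC mice. The part of that difference in the receptor values was not tested.

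All 10 receptors lay clear of background in every array. Background was judged in 2 ways, by system noise (5.75, the 20th percentile of all values) and by 1210 probe sets of olfactory and vomeronasal receptors, genes of the nose, whose 95th percentile was 6.99. The receptor nearest to background was Htr7, with a mean of 7.21 over the 12 arrays, 0.22 above the percentile, and 42 of the 1210 nasal receptor probe sets were brighter. Htr6 followed at 7.88, with 12 of them brighter, and Htr3a at 8.21, with 5 brighter. Htr1f averaged 8.44, Htr4 8.47, Htr1a 8.64, Htr5a 8.96, Htr2c 9.46, Htr1b 9.66 and Htr2a 11.12, and none of these was exceeded by more than 3 of the nasal probe sets. For Htr2a the number was 0. Probe sets respond differently to the same amount of RNA, so these values place each gene against background and do not rank the receptors against each other.

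**Figure D1:**
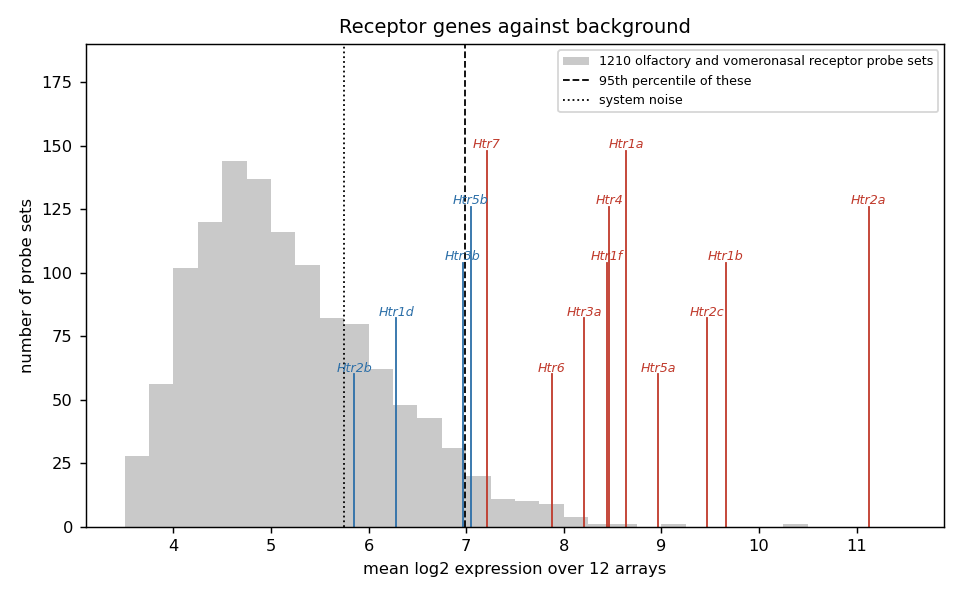
Mean log2 expression over the 12 arrays (horizontal axis) of 1210 olfactory and vomeronasal receptor probe sets (grey histogram, number of probe sets on the vertical axis), with the 10 receptor genes as red lines and 4 other serotonin receptor genes as blue lines, whose heights carry no value. All red lines lie right of the dashed 95th percentile at 6.99, Htr7 closest to it at 7.21, while the blue lines lie near it or left of it.

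None of the 10 receptors differed between CSD and HC mice beyond the spread between mice. The largest differences were a slightly higher Htr1b (log2 fold change 0.09) and a slightly lower Htr7 (−0.08) in CSD. With limma, which fits a linear model to each probe set and borrows the estimate of variance across them, 0 of 10 receptors passed an adjusted p under 0.05 with a fold change of at least 1.2, and neither did any other named gene (0% of 17656). With the same fold limit and p under 0.05 before adjustment, 0 of 10 passed, beside 0.68% of the named genes. Without a fold limit 0 of 10 reached an unadjusted p under 0.05, beside 8.41% of the named genes (1.89% with a higher and 6.52% with a lower mean in CSD mice). For a list of this length these counts are close to the background. The methods' t-test likewise called 0 receptors, with or without adjustment.

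The direction of the means was mixed. Htr1b, Htr2c, Htr4 and Htr5a had a higher mean in CSD mice (4 genes) and the others a lower one (6 genes), beside 57.1% of all named genes with a lower mean. The median log2 fold change of the receptors was −0.0023, beside −0.010 over all named genes. The median size of the difference regardless of sign was 0.040 for the receptors and 0.043 for all named genes. The groups overlapped for every receptor, whereas the 6 CSD mice all lay under the 6 HC mice for 0.935% of the named genes and all lay over them for 0.0793%.

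The precision allowed small changes to be bounded. For 9 of 10 receptors the 95% confidence interval of the difference lay within a fold change of 1.2 in either direction, as it did for 89.0% of the named genes. The exception was Htr2c, whose interval ran from a fold change of 0.837 to 1.26. The narrowest bounds among the receptors were those of Htr6, from 0.930 to 1.07.

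**Figure D2:**
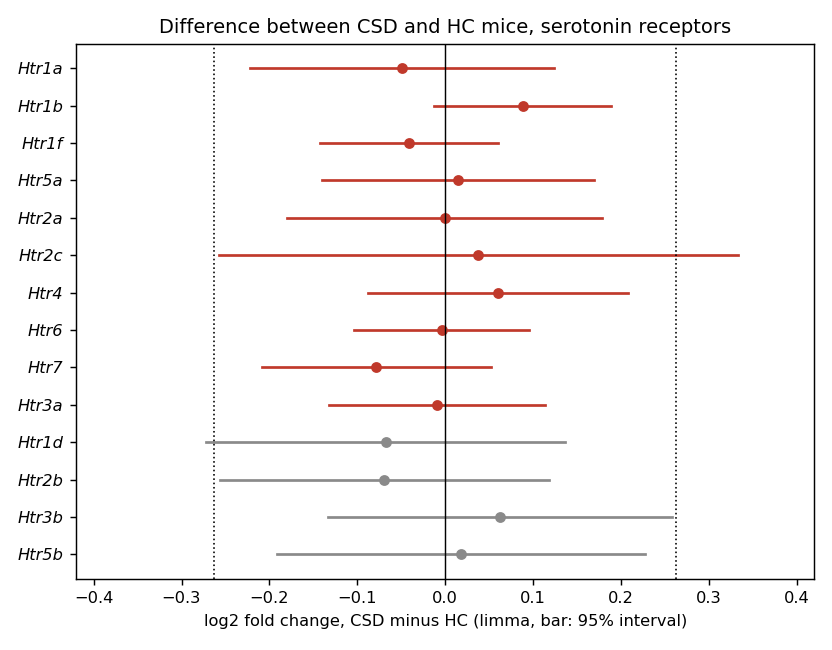
Log2 fold change, CSD minus HC (horizontal axis), with the 95% confidence interval from limma as a bar, for the 10 receptor genes (red) and 4 other serotonin receptor genes (grey), n = 6 mice per group. Dotted lines mark a fold change of 1.2, every interval includes 0, and among the red bars only that of Htr2c crosses a dotted line.

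Among the receptors that couple to Gi/o, Htr1b came closest to a difference. Htr1b, found on axon terminals, where it limits transmitter release, ranged from 9.57 to 9.81 with a median of 9.72 in CSD mice, against 9.52 to 9.74 with a median of 9.61 in HC mice. Of the CSD mice 5 lay above the HC mean and 1 below, yet the ranges overlapped over most of their length. The means were 9.70 ± 0.08 in CSD and 9.62 ± 0.07 in HC (SD, n = 6 each), a log2 fold change of 0.09 (standard error 0.05, 95% interval −0.01 to 0.19). Limma gave an unadjusted p of 0.0814 and an adjusted p of 0.667, and the exact permutation test over the splits of the 12 arrays, two-sided, gave p = 0.0866. Without HC replicates 2 and 6 the log2 fold change was 0.12 at an unadjusted limma p of 0.0268, and the adjusted p was 0.495.

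Htr1a acts both as the autoreceptor of raphe neurons and as an inhibitory receptor on cortical cells. It ranged from 8.44 to 8.78 with a median of 8.59 in CSD mice, against 8.45 to 8.86 with a median of 8.70 in HC mice. The 2 ranges covered each other almost fully. The log2 fold change was −0.05 (standard error 0.08, 95% interval −0.22 to 0.12, adjusted p = 0.912 from limma), and without HC replicates 2 and 6 it was 0.0046.

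Htr1f, a receptor on neurons and terminals that is a target of migraine drugs, ranged from 8.34 to 8.53 with a median of 8.41 in CSD mice, against 8.38 to 8.58 with a median of 8.46 in HC mice. Its log2 fold change was −0.04 (standard error 0.05, adjusted p = 0.872 from limma). Htr5a, a brain receptor whose function is less well known, ranged from 8.79 to 9.09 with a median of 8.99 in CSD mice, against 8.78 to 9.22 with a median of 8.94 in HC mice. Its log2 fold change was 0.01 (standard error 0.07, adjusted p = 0.981 from limma). The single high HC value of Htr5a came from replicate 2, and without HC replicates 2 and 6 the log2 fold change was 0.09 (adjusted p = 0.712 from limma).

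The receptors that couple to Gq had the highest SD pooled over the groups, and their group means were close. For Htr2a this held through the CSD mice only, and its SD in HC mice was the lowest among the receptors. Htr2a, through which serotonergic hallucinogens act, had means of 11.12 ± 0.21 in CSD and 11.12 ± 0.07 in HC mice (SD, n = 6 each). It ranged from 10.83 to 11.35 with a median of 11.17 in CSD mice, against 11.01 to 11.19 with a median of 11.13 in HC mice. The CSD mice thus lay on both sides of the HC range, with replicates 2 and 6 below it (10.83 and 10.93) and replicates 7 and 9 above it (11.31 and 11.35). The log2 fold change was −0.00045 (standard error 0.08, 95% interval −0.18 to 0.18, adjusted p = 0.999 from limma). The difference in spread between the groups was not tested.

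Htr2c, whose transcript is known for RNA editing, ranged from 9.19 to 9.67 with a median of 9.52 in CSD mice, against 8.92 to 9.84 with a median of 9.52 in HC mice. Its lowest and its highest value both came from HC mice, replicates 4 and 1. The log2 fold change was 0.04 (standard error 0.14, 95% interval −0.26 to 0.33, adjusted p = 0.972 from limma), and without HC replicates 2 and 6 it was 0.10. The choroid plexus, which borders the ventricles, is a strong source of this transcript, and 2 of 7 markers of choroid plexus and ependyma, Kcnj13 and Cldn1, lay clear of background. Ttr, which defines the tissue, was under the limit, at 6.48 ± 0.12 in CSD and 6.67 ± 0.46 in HC mice (SD, n = 6 each). The mean level over the 7 markers ranged from 6.75 to 7.04 in CSD mice and from 6.71 to 7.22 in HC mice.

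The receptors that couple to Gs also overlapped between the groups. Htr4, known from studies of memory and feeding, ranged from 8.35 to 8.68 with a median of 8.46 in CSD mice, against 8.33 to 8.54 with a median of 8.44 in HC mice. CSD replicates 9 and 10 were the highest of all mice, and the other CSD mice lay within the HC range. The log2 fold change was 0.06 (standard error 0.07, 95% interval −0.09 to 0.21, adjusted p = 0.873 from limma).

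Htr6, a receptor found almost exclusively in the brain, was the steadiest of the Gs-coupled receptors. It ranged from 7.79 to 8.01 with a median of 7.86 in CSD mice, against 7.79 to 8.003 with a median of 7.86 in HC mice, and its log2 fold change was −0.0042 (standard error 0.05, adjusted p = 0.991 from limma). Htr7, known for roles in circadian timing and body temperature, ranged from 7.02 to 7.28 with a median of 7.20 in CSD mice, against 7.03 to 7.35 with a median of 7.29 in HC mice. Of the CSD mice 5 lay below the HC mean of Htr7. Its log2 fold change was −0.08 (standard error 0.06, 95% interval −0.21 to 0.05), with an adjusted p of 0.799 from limma and p = 0.227 from the exact permutation test. Without HC replicate 4, the lowest HC mouse, it was −0.12 at an unadjusted limma p of 0.0301 and was still not called. Without HC replicates 2 and 6 it was −0.05.

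Htr3a, the channel subunit, ranged from 8.002 to 8.33 with a median of 8.22 in CSD mice, against 8.05 to 8.26 with a median of 8.24 in HC mice. In each group 1 mouse lay apart below the others, CSD replicate 9 at 8.002 and HC replicate 5 at 8.05. The log2 fold change was −0.0091 (standard error 0.06, 95% interval −0.13 to 0.11, adjusted p = 0.985 from limma). Of 8 markers of the interneuron class in which this channel is found, all were clear of background, 3 were higher and 5 lower in CSD mice by the mean, and their median log2 fold change was −0.01.

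**Figure D3:**
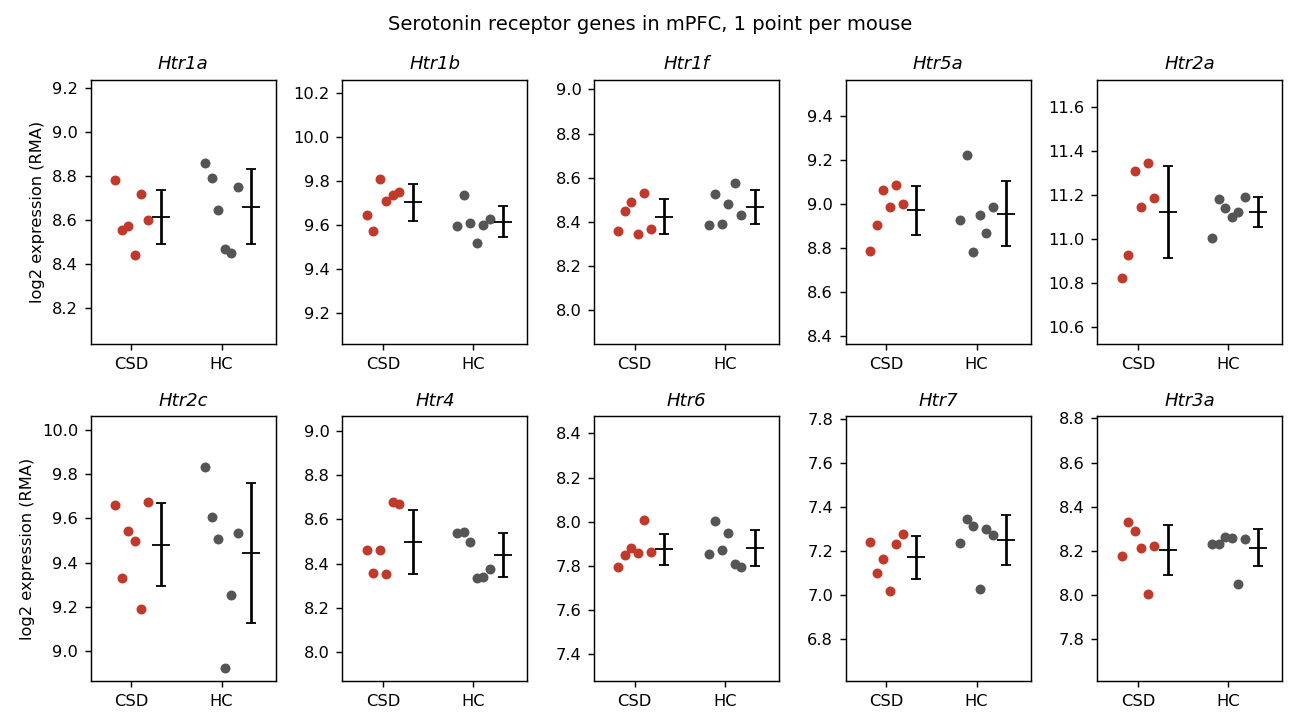
Log2 expression of the 10 receptor genes (vertical axes, each spanning 1.2 log2 units) in CSD mice (red) and HC mice (grey), 1 point per mouse, with the mean ± SD of each group (n = 6) as a black bar. The groups overlap in every panel, and the CSD points of Htr2a and the HC points of Htr2c are the most spread.

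The other 4 serotonin receptor genes on the array were dimmer. Htr1d (6.29), Htr2b (5.85) and Htr3b (6.96) were near background by the mean over the 12 arrays, and Htr5b (7.05) lay 0.06 above the limit, with 7 of 12 arrays over it. Their log2 fold changes lay between −0.07 for Htr2b and 0.06 for Htr3b, and 0 of 4 reached an unadjusted p under 0.05. HC replicate 2 was the highest of all mice for each of the 4. For Htr2b, 4 of the 12 values lay below system noise and were raised to it before the fit.

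The receptors differed in how much they varied from mouse to mouse. The SD pooled over the groups was 0.26 for Htr2c and 0.15 for Htr2a, higher than in 99.3% and 98.7% of the genes within 0.5 log2 units of the same level. For Htr2a that spread was in the CSD mice (SD 0.21), and its SD of 0.07 in HC mice was the lowest among the receptors. Htr1a (SD 0.15) exceeded 92.5% and Htr5a (SD 0.13) 88.6% of the genes of its level. At the other end Htr6 had an SD of 0.076, higher than 15.9%, and Htr1f one of 0.077, higher than 24.4%. Htr1b, Htr3a, Htr4 and Htr7 lay between these, at 36.9%, 52.2%, 79.9% and 35.1%.

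Correlations between receptors across mice mostly did not pass the adjustment. After removal of the group means, 30 of the 45 pairs had a positive correlation, with a median r of 0.26. By r, 7 of 45 pairs had an unadjusted permutation p under 0.05 and 0 passed after adjustment. Htr1b and Htr2a were the pair with the smallest p (r = 0.73, permutation p = 0.0077, adjusted p = 0.181 over the 45 pairs, and Spearman's rho = 0.86, permutation p = 0.00065, adjusted p = 0.0292). That was the only pair to pass the adjustment, by rho and not by r, and r was 0.72 without the 2 mice farthest from the median of Htr1b. Within CSD mice r was 0.84 (exact permutation p = 0.0375) and within HC mice 0.54 (exact permutation p = 0.237).

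Htr2a and Htr5a gave r = 0.65 (permutation p = 0.0233, adjusted p = 0.188) and rho = 0.82 (permutation p = 0.0023, adjusted p = 0.0511). Within CSD mice their r was 0.98 (exact permutation p = 0.00139, n = 6), against 0.37 within HC mice (exact permutation p = 0.414, n = 6), and without the 2 mice farthest from the median, CSD replicates 2 and 6, it was 0.49 over the other mice. CSD replicates 2 and 6 were left out because their Htr2a values were the farthest from the median. That narrows the range and can itself lower r, so the drop does not show what the relation rested on. Htr1a and Htr2c gave r = 0.64 (permutation p = 0.025, adjusted p = 0.188), with 0.0058 within CSD (exact permutation p = 0.994) and 0.91 within HC mice (exact permutation p = 0.00556). The r of 0.98 and of 0.91 were the highest of the 45 pairs within CSD and within HC mice. The p-values within a group were not adjusted. The differences between the groups in these correlations were not tested. Htr5a and Htr6 gave r = 0.70 (permutation p = 0.0092, adjusted p = 0.181). Htr4 and Htr7 gave r = 0.66 (permutation p = 0.0161, adjusted p = 0.181), and Htr1a and Htr4 r = 0.61 (permutation p = 0.0368, adjusted p = 0.237). With the arrays centred on their medians r was 0.64 for Htr1b and Htr2a, 0.53 for Htr2a and Htr5a, 0.36 for Htr1b and Htr5a (0.70 before) and 0.67 for Htr1a and Htr2c. It was then 0.33 for Htr5a and Htr6, 0.60 for Htr4 and Htr7 and 0.58 for Htr1a and Htr4.

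**Figure D4:**
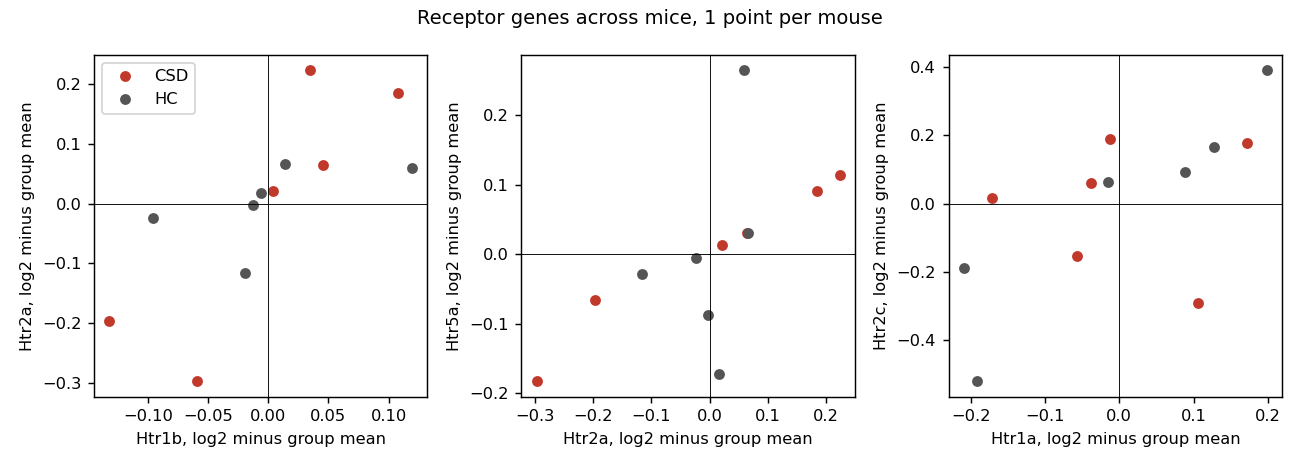
Log2 expression minus the group mean for 3 pairs of receptor genes (axes in log2 units), 1 point per mouse, CSD in red and HC in grey. The CSD points of Htr2a and Htr5a fall close to a line (r = 0.98), and for Htr1a and Htr2c the HC points do (r = 0.91). Each is the highest r of the 45 pairs within its group.

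The start regions of Htr1b, Htr2a and Htr5a are shown because the 3 pairs these genes form were among the 7 pairs with an unadjusted p under 0.05, of which by rho only Htr1b and Htr2a passed the adjustment. Each window runs from 250 bases before to 50 bases after an annotated start. It is taken from RefSeq on build GRCm38.p6 and is read 5′ to 3′ along the gene. For Htr5a that start lies inside the listed gene, which begins at 27841716. Most of its window, with the marked E box, is therefore within the gene. Windows were at hand for 8 of the 10 receptors. Capitals mark matches on either strand to 5 motifs, the GC box GGGCGG, the hexamer of the glucocorticoid receptor AGAACA, the cyclic AMP response element TGACGTCA, the E box CAGCTG and the TATA box TATAAA.
Htr1b, chr9:81633783-81634082, minus strand: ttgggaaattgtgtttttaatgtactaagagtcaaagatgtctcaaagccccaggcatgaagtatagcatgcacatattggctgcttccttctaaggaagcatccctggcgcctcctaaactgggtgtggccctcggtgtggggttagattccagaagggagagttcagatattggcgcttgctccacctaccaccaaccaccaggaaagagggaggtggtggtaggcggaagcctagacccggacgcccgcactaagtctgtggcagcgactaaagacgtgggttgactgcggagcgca
Htr2a, chr14:74640624-74640923, plus strand: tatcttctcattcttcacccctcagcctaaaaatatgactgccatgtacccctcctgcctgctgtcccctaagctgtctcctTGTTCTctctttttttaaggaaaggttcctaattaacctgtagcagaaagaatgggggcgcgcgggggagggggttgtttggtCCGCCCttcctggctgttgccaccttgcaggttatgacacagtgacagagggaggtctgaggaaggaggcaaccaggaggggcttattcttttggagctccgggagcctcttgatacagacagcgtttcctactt
Htr5a, chr5:27841697-27841996, plus strand: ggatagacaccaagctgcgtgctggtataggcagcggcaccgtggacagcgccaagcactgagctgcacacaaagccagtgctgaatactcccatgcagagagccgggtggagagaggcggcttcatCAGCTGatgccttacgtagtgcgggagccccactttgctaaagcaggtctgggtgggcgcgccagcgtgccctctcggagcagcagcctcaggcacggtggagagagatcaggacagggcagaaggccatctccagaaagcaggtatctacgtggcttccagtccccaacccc
The 3 windows share none of these motifs. That of Htr1b holds 0 matches. That of Htr2a holds 1 hexamer of the glucocorticoid receptor and 1 GC box, both on the opposite strand and not overlapping, and that of Htr5a holds 1 E box. Of 32851 such windows in the table, 35.7% hold the GC box, 19% that hexamer, 16.3% the E box, 13.6% the TATA box and 1.79% the cyclic AMP response element. The GC content was 53.3% for Htr1b, 52% for Htr2a and 61.3% for Htr5a, beside a median of 52.7%. These matches describe the letters of the windows only.

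For each receptor the 2 genes with the most similar pattern were taken from 13468 genes clear of background, by Pearson's r over the 12 mice after removal of the group means. As the highest of many values they are a description with no test. Htr2a was followed by Usb1 (r = 0.95), which trims the U6 small nuclear RNA, and Fam20a (0.95), and Htr2c by Rcn2 (0.91), a calcium-binding protein of the endoplasmic reticulum, and Cdo1 (0.91), the cysteine dioxygenase. Htr1a was followed by Ccn3 (0.95), a secreted matrix protein, and Ndufs8 (0.93), a subunit of respiratory complex I. Htr1b was followed by Appbp2os (0.96) and the kinase gene Dapk1 (0.95), and Htr1f by the ion exchanger gene Slc9b2 (0.88) and E130308A19Rik (0.87). Htr5a was followed by Nckap5 (0.97) and Zfp142 (0.96), and Htr4 by Nrg2 (0.92), a neuregulin, and Znhit6 (0.91). Htr6 was followed by E4f1 (0.97) and the ubiquitin ligase gene Siah2 (0.95), Htr7 by Cetn4 (0.91) and the transcription factor gene Zic4 (0.88), and Htr3a by Marcksl1 (0.89) and Ctps (0.88), the CTP synthase. No receptor was among the 2 closest genes of another.

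Around the receptors, some genes had a lower mean in CSD mice at an unadjusted limma p under 0.05. These were 2 of 3 tested genes of serotonin synthesis and 1 of 2 of its breakdown, beside 6.52% of the named genes. The lists are too short to compare these shares, and 0 of their genes passed after adjustment. Qdpr, which regenerates the tetrahydrobiopterin cofactor of tryptophan hydroxylase, averaged 10.95 ± 0.12 in CSD and 11.24 ± 0.11 in HC mice (SD, n = 6 each), a log2 fold change of −0.29 (standard error 0.06). All 6 CSD mice lay below all HC mice for Qdpr (exact permutation p = 0.00216, the smallest that 6 against 6 allow), with an adjusted p of 0.188 from limma, so that it was not called. Like the 7 oligodendrocyte markers, Qdpr had a lower mean in CSD mice, and the part of these cells in the Qdpr difference was not tested. Ddc, the decarboxylase that makes serotonin and dopamine, lay not far above background, with a mean of 7.23 against the limit of 6.99. It had a log2 fold change of −0.15 (exact permutation p = 0.0606, adjusted p = 0.566 from limma). Maob, a mitochondrial monoamine oxidase, had one of −0.10 (exact permutation p = 0.0433, adjusted p = 0.571 from limma), and Maoa, the oxidase with the higher affinity for serotonin, one of −0.12 (exact permutation p = 0.199).

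Of the genes listed for serotonergic neurons, which are not all particular to them, Tph2, Slc6a4 and Gata3 were near background. Lmx1b lay above the limit in all 12 arrays. Fev and the transporter gene Slc22a3 were listed but had no probe set annotated to them alone. Tph2, the tryptophan hydroxylase of raphe neurons, had no value above system noise (5.33 ± 0.10 in CSD and 5.35 ± 0.15 in HC mice, SD, n = 6 each) and was not tested, as was Gch1, which starts synthesis of the cofactor (5.20 in CSD and 5.18 in HC mice). Tph1, the hydroxylase of peripheral tissues, was near background too, with a mean of 6.25. The serotonin transporter gene Slc6a4 averaged 6.81 ± 0.03 in CSD and 6.72 ± 0.15 in HC mice (SD, n = 6 each), under the limit of 6.99, with a log2 fold change of 0.09 (adjusted p = 0.779 from limma). The vesicular transporter gene Slc18a2, near background at a mean of 6.63, had a log2 fold change of −0.02. Slc29a4, a low-affinity transporter of monoamines, had one of −0.02. Lmx1b, a transcription factor of these neurons, had a mean of 7.87 and a log2 fold change of 0.04, and Gata3 had a mean of 5.79 and a log2 fold change of 0.02.

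Downstream of the receptors the lists held small differences in both directions, and 0 genes passed the adjustment in any of them. Gnas, which encodes the alpha subunit of Gs, Itpr1 and Rgs10 were listed but had no probe set annotated to them alone. Of 8 measured G protein alpha subunit genes 7 were lower and 1 higher by the mean in CSD mice (median log2 fold change −0.05). That was beside 57.1% of all named genes with a lower mean, and 0 of the 8 reached an unadjusted limma p under 0.05. The smallest limma p among them belonged to Gnai2 (−0.07, exact permutation p = 0.0887) and Gna11 (−0.07, exact permutation p = 0.0671). Of 8 adenylyl cyclase genes 4 were higher and 4 lower by the mean, among them Adcy2 (−0.06, exact permutation p = 0.0281) and Adcy1 (0.06, exact permutation p = 0.286). Limma gave Adcy2 an unadjusted p of 0.0788 and an adjusted p of 0.659. Of 4 phospholipase C genes 2 were higher and 2 lower by the mean, among them Plcb3 (0.04) and Plcb1 (−0.04). The potassium channel genes that Gi/o-coupled receptors act on were split 2 and 2, with Kcnj6 at 0.12 (exact permutation p = 0.102) and Kcnj9 at 0.05.

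Of 6 genes for RGS proteins, which end G protein signals, 3 were higher and 3 lower in CSD mice by the mean. Rgs8 was at −0.12 (exact permutation p = 0.117) and Rgs19 at −0.05 (exact permutation p = 0.0303). Limma gave Rgs19 an unadjusted p of 0.150 and an adjusted p of 0.757. Among 10 partners and chaperones of the receptors 5 were higher and 5 lower by the mean, and 1 in each direction reached an unadjusted p under 0.05, beside 1.89% of the named genes higher and 6.52% lower in CSD mice. Yif1b, which carries the Htr1a receptor to dendrites, was at −0.13 on the log2 scale (standard error 0.04, exact permutation p = 0.0152, adjusted p = 0.436 from limma). Cc2d1b, a repressor of Htr1a transcription known from human cells, was at 0.12 (standard error 0.05, exact permutation p = 0.0238, adjusted p = 0.481 from limma). Of its 2 probe sets only the brighter stood for it. Cc2d1a, of the same list, was at 0.0021 (exact permutation p = 0.963). Htr1a itself had a log2 fold change of −0.05 (adjusted p = 0.912 from limma), and a link between these genes was not tested.

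**Figure D5:**
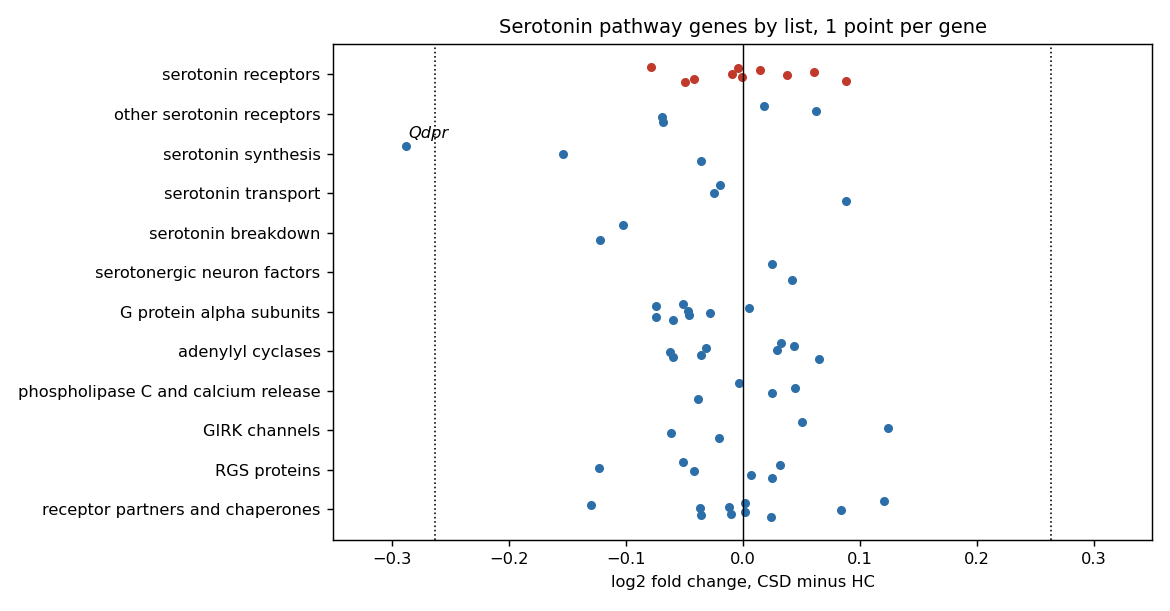
Log2 fold change, CSD minus HC (horizontal axis), of each tested gene of the serotonin pathway, by list (rows), with the 10 receptor genes in red and other genes in blue, n = 6 mice per group. Dotted lines mark a fold change of 1.2, which Qdpr alone passes, at −0.29.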

How the data were processed

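Expression was measured in the mPFC of 6 CSD and 6 HC mice, 1 array per mouse. The deposited table gives log2 values of 35556 probe sets for 12 arrays, which the authors obtained by RMA with the Affymetrix Expression Console according to their methods and the submitters' processing notes. Its version is not given in the sources used here. An array has no read depth, and the number of mice limits the precision.

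Only the 29838 probe sets with a value above system noise (5.75) entered the fit, and their lower values, 4.67%, were set to that level. The 10 receptors had no such value. A gene took the brightest of its probe sets that the platform annotation of 2016 pairs with that gene alone. CSD minus HC was fitted in R 4.3.3 with lmFit and eBayes of limma 3.58.1, without covariates, and two-sided p-values were adjusted by Benjamini-Hochberg over the kept probe sets. Single genes were also tested by exact permutation over the 924 splits of the arrays, and pairs of receptors over 100000 permutations. The limma step was tested on simulated data. Plots were made in Python 3.11.15 with matplotlib 3.10.9.

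The receptors, gene lists and motifs were chosen with earlier results of these data known. Genes named are the receptors, all genes of synthesis, transport and breakdown, the genes with the smallest p in the other pathway lists (2 each), and the genes most correlated with each receptor (2 each). Cc2d1a and listed genes without a usable probe set are named beside these. Markers of 12 cell types were examined. The alternatives were the methods' t-test, limma without adjustment, other fold limits, floors, filters and normalizations, variance and weighting options, the replicate number as a block, averaging the probe sets of a gene and leaving out each array. Leaving out HC replicates 2 and 6 together was added after the data were seen.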

Additional observations from a re-analysis of the deposited data

Results flagged for a closer look

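An array far from the others of its group was looked for in each group of 66 genes of the serotonin pathway, as a gap to the nearest value over 0.625 of the range of the group (Dixon's 95% limit for 6 values). Of 132 groups 8 passed it, where chance marks about 5%. Among the receptors these were Htr3a, where HC replicate 5 at 8.05 lay below the next HC value of 8.23 (0.845 of the range), and Htr7, where HC replicate 4 at 7.03 lay below the next one of 7.24 (0.652 of the range).
HC replicate 2 stood above the other HC mice for Htr1d (6.78 against 6.31 for the next, 0.689 of the range), for Tph2 (5.64 against 5.36, 0.629 of the range) and for Rgs19 (9.33 against 9.22, 0.752 of the range). For Rgs19, CSD replicate 2 also lay below the other CSD mice (9.10 against 9.17, 0.661 of the range). For Cc2d1b, CSD replicate 6 at 8.30 lay above the next CSD mouse at 8.19 (0.683 of the range). For Gnaz, CSD replicate 9 at 10.25 lay above the next CSD mouse at 10.05 (0.776 of the range).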

How the results depend on the processing

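The count of receptors called stayed at 0 under every alternative run, among them leaving out each array in turn (0 to 0). Clear of background meant above both limits, so that all 10 were above either limit alone by that rule. The number of all probe sets called was 0 with all arrays and 0 without any single array or without HC replicates 2 and 6 together, 301 with the methods' t-test without adjustment, 406 with limma without adjustment, 21 with probe sets of 1 gene only, 1 with quantile normalization and 14 when limma modelled a mean-variance trend with robust estimation. It was not computed where probe sets of a gene were averaged, which leaves genes and not probe sets. Of 280 log2 fold changes of the receptors under alternatives, 249 kept their direction, 31 turned and 0 were called. Many of the 249 could not turn. Changing only the test, adjustment, fold limit, floor, filter, variance trend or handling of probe sets returned the main log2 fold change. The smallest unadjusted p was 0.0207, for Htr1b with quantile normalization, at a log2 fold change of 0.10.

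Leaving out each array in turn gave log2 fold changes of −0.091 to −0.0097 for Htr1a, 0.067 to 0.11 for Htr1b, −0.063 to −0.019 for Htr1f, −0.045 to 0.059 for Htr2a, −0.067 to 0.12 for Htr2c, −0.042 to 0.031 for Htr3a, 0.024 to 0.090 for Htr4, −0.020 to 0.068 for Htr5a, −0.030 to 0.021 for Htr6, −0.12 to −0.047 for Htr7. Beyond these, the direction turned for Htr2a with quantile normalization (0.010) and array weights (0.0079), and for Htr3a with array weights (0.0098). Without HC replicates 2 and 6 together it turned for Htr1a (0.0046), Htr2a (0.031), Htr3a (0.0047) and Htr6 (0.0055). The cause was not tested, and the values that turned are smaller than the standard error of the difference. Without HC replicates 2 and 6, Htr1b was 0.12 (adjusted p = 0.495 from limma), Htr1f −0.034 and Htr4 0.072.

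The titles number the mice, and only numbers 2 and 6 occur in both groups. Nothing says that they pair mice, and the deviations from the group means of same-numbered mice correlated at −0.21 and −0.035 over probe sets. With the replicate number as a block (replicate block), which leaves 2 pairs to estimate a difference, the count of receptors called was 0. The direction then turned for Htr1b (−0.074), Htr2c (−0.078), Htr3a (0.011), Htr4 (−0.049) and Htr5a (−0.26), and Htr2a had a log2 fold change of −0.31 at an unadjusted p of 0.0540.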

Other observations

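Markers of other cell types had medians between −0.11 and 0.10 for CSD minus HC, apart from those of oligodendrocytes. The median log2 fold change was 0.01 for 4 markers of excitatory cortical neurons, −0.11 for 5 of inhibitory neurons, −0.05 for 5 of deep-layer projection neurons and −0.09 for 5 of astrocytes. It was −0.06 for 5 markers of microglia, −0.05 for 4 of endothelial cells, −0.09 for 6 of striatal neurons, −0.04 for 7 of choroid plexus and ependyma, 0.10 for 2 of red blood cells and 0.03 for 4 of olfactory bulb cells. All 5 markers of inhibitory neurons had a lower mean in CSD mice, with 0 at an unadjusted limma p under 0.05. All 5 astrocyte markers had a lower mean too, beside 57.1% of all named genes. Among all named genes 8.41% reached an unadjusted p under 0.05 in limma. Of 55 markers other than those of oligodendrocytes, 6 did and 0 passed the adjustment. These were the choroid plexus marker Cldn1 (0.19) and the deep-layer marker Crym (0.10), with a higher mean in CSD mice, and Prox1 of the interneuron class of Htr3a (−0.22), the astrocyte marker Aqp4 (−0.18), the striatal marker Drd1 (−0.16) and the microglial marker P2ry12 (−0.14), with a lower mean.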
